A study of Mus musculus with 72 samples.

Results

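The genes described are the 3 methionine adenosyltransferase genes Mat1a, Mat2a and Mat2b and the RNA methyltransferase gene Mettl16, followed in every library of a diet and circadian time course in mouse liver and suprachiasmatic nucleus (SCN). They were chosen by symbol: all 4 were among the 22823 genes of the liver count table, and 3 of the 4 (Mat2a, Mat2b and Mettl16) were among the 15759 genes of the SCN table. The exon bins of Mat2a, the pieces into which its annotated exons are divided for counting, were followed as well, because they separate the last intron from the exons.

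Methionine adenosyltransferases join methionine and ATP into S-adenosylmethionine (SAM), the donor of most cellular methyl groups. Mat1a encodes the catalytic subunit of adult hepatocytes, Mat2a the catalytic subunit of most other tissues and of growing liver, and Mat2b a regulatory subunit that binds the Mat2a product. Mettl16 encodes an N6-adenosine methyltransferase that binds hairpins in the 3′ untranslated region (3′UTR) of the Mat2a transcript. Where SAM is plentiful the hairpins are methylated and the last intron of Mat2a tends to be retained, and where SAM is scarce METTL16 stays bound and the intron is spliced out, which yields more of the translated mRNA.

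C57BL/6J mice bought at 8 to 12 weeks of age and housed singly received for 11 days either a diet deficient in methionine and choline (MCD) or an isocaloric control diet. All mice lived in a light-dark cycle for 10 days and in constant darkness on day 11, when they were killed at circadian time (CT) 0, 4, 8, 12, 16 or 20 h. The left lobe of the liver and the SCN, the hypothalamic pacemaker, which was cut out by laser microdissection, gave 12 groups of 3 libraries per tissue. Replicates 1 and 2 of each group were labelled male and replicate 3 female, although the protocol text speaks of males only. The labels name no genetic change in any group and do not tie liver and SCN libraries to shared mice.

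Libraries held 52600280 to 86740552 gene counts in liver and 23347789 to 79812461 in SCN. The labelled tissues were checked on marker genes: the summed level of 6 hepatocyte markers was 69580 to 111223 CPM (a gene's count relative to the size of its library) in control livers and 52383 to 111940 CPM in MCD livers. The 9 SCN neuron markers summed to 1817 to 3591 CPM in control SCN and 1921 to 4629 CPM in MCD SCN. In liver 2 of these 9 were tested, and they summed to 90.6 to 554 CPM on control and 86.9 to 394 CPM on MCD. In SCN 3 of the 6 hepatocyte markers were tested, and they summed to 14.8 to 54.8 CPM on control and 15.1 to 42.0 CPM on MCD. In liver, libraries fell into 2 kinds by the mitochondrial transcript mt-Nd6. It stood at 379 to 1039 CPM in 15 libraries (10 control, 5 MCD) and at 32.9 to 133 CPM in 21 (8 control, 13 MCD). Values of Mat1a and Mat2a are therefore also given within each kind. One library labelled control CT8 resembled MCD livers in many genes; the 2 male control CT8 columns carried the same header in both tables, and these libraries are called a and b here. Bulk libraries cannot tell fewer cells of a type from less RNA per cell.

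The sequences that METTL16 is known to act on were read from the annotated transcript Mat2a-201 (GENCODE M21, build GRCm38), whose 3′UTR has 1494 bases. The motif was searched as TACAGAGAA and, in its variant form, TACAGAAAA. It occurred 6 times in the 3′UTR of Mat2a, 5 times in the first form and 1 time in the variant form. The first base of each match, counted from the start of the 3′UTR, is given with its name, and the motif stands in capitals.

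Site 1, base 40: ggcgtaggtTACAGAGAAgccttcaag
Site 2, base 824: cttgtgataTACAGAGAAgtcacaggg
Site 3, base 1003: tggtgtagcTACAGAGAAaccagcttc
Site 4, base 1118: tggcgtaagTACAGAGAAgccatcacc
Site 5, base 1229: aaggtgtccTACAGAAAAaccttgggt
Site 6, base 1337: ctggtgtggTACAGAGAAgccagcttg

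In the last 1494 bases of the longest coding transcript, 683 of 16927 genes (4.03%) held at least 1 such match, and Mat2a was the only gene with as many as 6. On the opposite strand 4.93% of these genes held a match and Mat2a held 0. A match is a string of letters in an annotated transcript, and no binding or methylation was measured here.

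The last intron of Mat2a has 585 bases and is covered by exon bins 6 to 9, because an annotated transcript, Mat2a-202, retains it. Bin 7 also belongs to the transcript Mat2a-206, and bin 8 to Mat2a-206 and Mat2a-209. Those transcripts lack bins 6 and 9, so counts in bins 7 and 8 need not all come from the retained intron. The ends of the intron are shown because the intron counts below turn on them, with the intron in capitals and the flanking exon in lower case.

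5′ end: ggtcattgtcagGTAAAGATGGTA
3′ end: TGTATATTCCAGggatctggatct

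The reading frame of Mat2a-202 meets the stop codon TAA at intron base 2, whereas Mat2a-201 goes on for 100 coding bases after the intron. The METTL16 motif occurred 0 times in the intron.

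In the liver, Mat2a was the member whose level rose on the MCD diet, to about 3 times its control level, at every time point. Mat1a, the predominant liver form, Mat2b and Mettl16 did not pass the test of the diet effect averaged over the day. Mat2a also passed the test of a daily rhythm on both diets, with a later fitted peak on MCD, though the difference between the 2 curves was not called with any replicate number left out.

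On the control diet the livers at CT0 held 50.3, 77.0 and 60.9 CPM of Mat2a (replicates 1, 2 and 3; CPM were taken after TMM scaling within the tissue, which takes most genes to be unchanged). At CT4 they held 63.7, 62.2 and 61.9 CPM, and at CT8 69.7 (library a), 79.8 (library b) and 73.5 CPM. At CT12 the values were 90.2, 102 and 84.4 CPM. Control livers were thus highest at CT12, where all 3 lay above every control library of other times. At CT16 control livers held 73.4, 79.7 and 75.4 CPM, and at CT20 60.3, 47.4 and 66.6 CPM of Mat2a, so that the lowest library of all was a male at CT20.

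On the MCD diet the livers at CT0 held 216, 251 and 152 CPM of Mat2a. At CT4 they held 119, 176 and 167 CPM, and at CT8 212, 166 and 183 CPM. The lowest MCD library (119 CPM at CT4) still exceeded the highest control library (102 CPM at CT12), so the 18 MCD and 18 control livers did not overlap. How many of all genes separate the diets in this way was not counted. At CT12 the MCD livers held 251, 210 and 290 CPM, at CT16 286, 275 and 326 CPM, and at CT20 246, 286 and 240 CPM of Mat2a. The MCD group mean was lowest at CT4 (154 ± 30.4 CPM, SD, n = 3) and highest at CT16 (296 ± 26.5 CPM).

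Across the day Mat2a averaged 71.0 ± 13.7 CPM (SD, n = 18) on control and 225 ± 56.5 CPM (n = 18) on MCD, a log2 change of 1.65 ± 0.07 (SE; edgeR quasi-likelihood test, adjusted p = 5.23e-15 over 20249 genes). The background of this comparison was high, since 46.6% of all genes tested in liver were called for diet. By time the log2 change of Mat2a was 1.72 at CT0, 1.30 at CT4, 1.33 at CT8, 1.44 at CT12, 1.96 at CT16 and 2.15 at CT20. Each of these passed the edgeR test (adjusted p 2.92e-06, 2.70e-05, 0.000140, 2.85e-05, 4.13e-07 and 6.23e-08), where 12.6%, 18.2%, 1.30%, 15.2%, 12.5% and 11.3% of genes were called. The change was thus smallest at CT4 and CT8 and largest at CT20, but a test of whether the 6 changes differ did not pass (adjusted p = 0.144 by edgeR, 0.909% of genes called); DESeq2 gave an adjusted p of 0.0253 for the same question.

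The rise of Mat2a was seen in libraries of both kinds. With high mt-Nd6 it averaged 68.2 ± 11.2 CPM (SD, n = 10) on control and 214 ± 69.6 CPM (n = 5) on MCD, and with low mt-Nd6 74.5 ± 16.4 CPM (n = 8) and 229 ± 53.3 CPM (n = 13). The control library CT8 a, which resembled MCD livers in other genes, held 69.7 CPM of Mat2a, inside the control range. Without it the diet groups still did not overlap at 6 of 6 times.

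**Figure D1:**
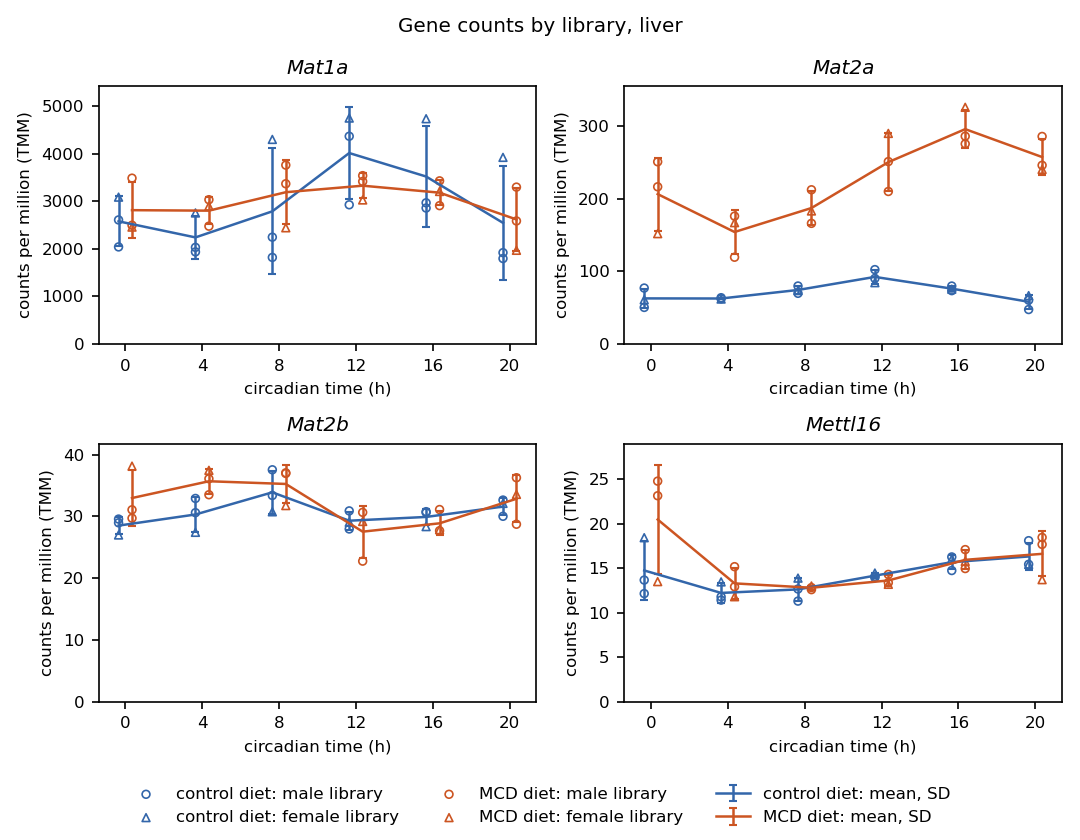
Level of Mat1a, Mat2a, Mat2b and Mettl16 in liver (CPM, y axis) against circadian time (h, x axis) on the control and MCD diets. Points are single libraries and lines join the group means with SD (n = 3); the MCD points of Mat2a (119 to 326 CPM) all lie above its control points (47.4 to 102 CPM), while the diets overlap in the other panels.

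Mat1a was by far the more abundant transcript in liver per length of exon. Per kilobase of its annotated exons it averaged 851 ± 299 CPM (SD, n = 18) on control and 862 ± 142 on MCD, against 15.8 ± 3.05 and 50.2 ± 12.6 for Mat2a. Mat2b averaged 6.12 ± 0.51 and 6.44 ± 0.85 CPM per kilobase, and Mettl16 1.04 ± 0.15 and 1.12 ± 0.26. The order Mat1a, Mat2a, Mat2b, Mettl16 held in both diets, and the ranges of neighbouring members in this order did not overlap in either diet.

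The counts of Mat2a for every count of Mat1a rose with the diet. In control livers Mat2a amounted to 1.59% to 3.83% of the Mat1a count (median 2.52%, n = 18), and in MCD livers to 4.41% to 12.2% (median 7.42%, n = 18). All 18 MCD livers lay above all control livers. The log2 ratio went from -5.32 ± 0.44 (SD) to -3.76 ± 0.40, a difference of 1.56 or 2.95-fold (two-sided permutation test with 100000 resamples, p = 1e-05, the smallest it can give). Without replicate 1, 2 or 3 of every group the difference was 1.58, 1.74 and 1.25, the last over male livers alone. The ratio compares counts within a library, so its change does not depend on the scaling between libraries.

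Mat1a on control ranged from 1797 to 4752 CPM (median 2808 CPM, n = 18) and on MCD from 1970 to 3763 CPM (median 3032 CPM, n = 18). The diets overlapped at 6 of 6 times, and the log2 change over the day was 0.08 ± 0.12 (SE, edgeR adjusted p = 0.603). Without replicate 3 of every group, which leaves male livers, it was 0.38 and passed the test (adjusted p = 0.00340). The 6 changes by time ranged from -0.25 at CT12 to 0.34 at CT4 and none passed the edgeR test. Control libraries were more spread than MCD libraries, with an SD of 1037 against 492 CPM. With high mt-Nd6 Mat1a averaged 2698 ± 1056 CPM (SD, n = 10) on control and 3069 ± 557 CPM (n = 5) on MCD. With low mt-Nd6 it averaged 3265 ± 986 CPM (n = 8) on control and 2960 ± 486 CPM (n = 13) on MCD. The means thus moved in opposite directions, within their spread, and this difference between the kinds was not tested.

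Mat2b on control ranged from 27.0 to 37.5 CPM (median 30.6 CPM, n = 18) and on MCD from 22.8 to 38.1 CPM (median 31.4 CPM, n = 18). Its log2 change was 0.07 ± 0.04 (SE, edgeR adjusted p = 0.206). At 2 of 6 times the 3 MCD livers lay above the 3 control livers, yet no single time passed the test.

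Mettl16 on control ranged from 11.3 to 18.4 CPM (median 14.03 CPM, n = 18) and on MCD from 11.8 to 24.8 CPM (median 14.02 CPM, n = 18), and the log2 change was 0.10 ± 0.07 (SE, edgeR adjusted p = 0.232). At CT0 the MCD livers held 23.1, 24.8 and 13.5 CPM of Mettl16 and the control livers 13.7, 12.2 and 18.4 CPM. Both male MCD livers were thus above the control livers and the female was not. The log2 change at CT0 was 0.46 ± 0.16 (edgeR adjusted p = 0.0596), and with the same libraries it passed by DESeq2 (0.46, adjusted p = 0.0382) and with library totals alone (0.71, adjusted p = 0.00921). It also passed without the female control library (0.69, adjusted p = 0.0107), without the female MCD library (0.70, adjusted p = 0.00326) and without replicate 3 of every group (0.88, adjusted p = 0.00127). The diet average of Mettl16 was 0.13 without that MCD library (adjusted p = 0.0408) and 0.22 without replicate 3 of every group (adjusted p = 0.00174).

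The scaling bears on these small changes. With TMM the median gene changed by 0.02 on the log2 scale in liver; with library totals alone Mat1a, Mat2b and Mettl16 rose by 0.34, 0.32 and 0.35 and passed the edgeR test, while the median of all genes rose by 0.27. Relative to that shift the changes of these 3 members were small, and that of Mat2a, 1.90, was not.

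Daily rhythms were tested by fitting a cosine of 24 h on each diet. On the control diet Mat2a was rhythmic in liver, with a fitted range from trough to peak of 0.59 on the log2 scale and a peak at 11.7 h (edgeR adjusted p = 0.0124), where 17.8% of genes were called. On MCD the range of Mat2a was 0.88 and the peak lay at 16.5 h (adjusted p = 0.000140), where 28.2% of genes were called. The curves of Mat2a differed between the diets (adjusted p = 0.0236), which held for 4.87% of genes. The difference did not pass the test with replicate 1, 2 or 3 left out of every group (adjusted p 0.315, 0.200 and 0.0602), nor did the control rhythm without replicate 1 (adjusted p = 0.255).

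The other members were rhythmic in liver on the MCD diet or on neither diet. Mat2b had a range of 0.34 with a peak at 2.94 h on MCD (edgeR adjusted p = 0.0167) and a range of 0.09 on control (adjusted p = 0.775). Mettl16 had a range of 0.56 with a peak at 21.3 h on MCD (adjusted p = 0.00672) and of 0.42 with a peak at 18.4 h on control (adjusted p = 0.0674). Mat1a had a range of 0.75 with a peak at 13.6 h on control (adjusted p = 0.0601) and of 0.32 on MCD (adjusted p = 0.549); without control library CT8 a its control rhythm passed the test (adjusted p = 0.0385). Leaving out a replicate number changed several of these calls. The MCD rhythm of Mat2b did not pass without replicate 1, 2 or 3 (adjusted p 0.0528, 0.136 and 0.144), nor that of Mettl16 without replicate 1 or 2 (0.288 and 0.151). Without replicate 3 the control rhythms of Mat1a and Mettl16 passed (0.0396 and 0.00459), as did the difference between the Mettl16 curves (0.0310). With all libraries the curves of the 2 diets were not found to differ for Mat1a, Mat2b and Mettl16 (adjusted p 0.633, 0.227 and 0.434).

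Splicing of Mat2a was read from its exon bins. Of the 29 bins, 21 cover exons of the main transcript (2804 bases), 4 the last intron (585 bases) and 4 other introns (1097 bases). Of the bins in other introns, 17, 19 and 23 belong to transcripts annotated as retaining an intron and bin 22 to a processed transcript. The last intron took a smaller share of the Mat2a counts in MCD livers than in control livers, at every time. In control livers at CT0 it took 8.44%, 6.19% and 8.08% of the Mat2a bin counts (replicates 1, 2 and 3), at CT4 6.15%, 6.37% and 5.73%, and at CT8 5.59%, 6.13% and 6.61%. At CT12 the shares were 5.30%, 6.59% and 8.86%, at CT16 4.49%, 9.48% and 7.06%, and at CT20 7.38%, 10.0% and 9.03%. The lowest control share (CT16) and the highest (CT20) were both those of male libraries.

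In MCD livers the last intron took 0.727%, 1.32% and 1.45% of the Mat2a bin counts at CT0, 4.15%, 1.96% and 1.91% at CT4, and 0.968%, 2.40% and 1.72% at CT8. At CT12 the shares were 1.88%, 0.933% and 1.70%, at CT16 1.23%, 1.43% and 1.03%, and at CT20 1.11%, 0.788% and 1.19%. All 18 MCD livers lay below all 18 control livers, the nearest being the first MCD library at CT4 (4.15%) and the first control library at CT16 (4.49%). How often introns of other genes separate the diets so was not counted. The mean share was 7.08% ± 1.57 (SD, n = 18) on control and 1.55% ± 0.79 (n = 18) on MCD. With high mt-Nd6 the mean shares were 7.03% ± 1.60 (n = 10) and 2.14% ± 1.23 (n = 5), and with low mt-Nd6 7.15% ± 1.64 (n = 8) and 1.32% ± 0.44 (n = 13). These shares rested on 170 to 482 intron counts per control library and 108 to 417 per MCD library.

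Counts from the exons of Mat2a were higher on MCD and those from the last intron were not. The exons of Mat2a gave 66.5 ± 12.6 CPM of all bin counts on control (SD, n = 16, since the files of 2 control libraries at CT0 were incomplete) and 250 ± 60.4 on MCD (n = 18). CPM of bins were taken over the raw total of bin counts, without the TMM scaling used for gene levels. The last intron gave 5.04 ± 1.26 and 3.69 ± 1.23 CPM, and 5 of 18 MCD livers lay below all control livers. The 4 bins in other introns gave 0.73 ± 0.26 and 1.06 ± 0.31 CPM. As a share of the Mat2a counts the other introns fell from 1.05% ± 0.38 to 0.432% ± 0.159, with 11 of 18 MCD livers below all control livers.

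**Figure D2:**
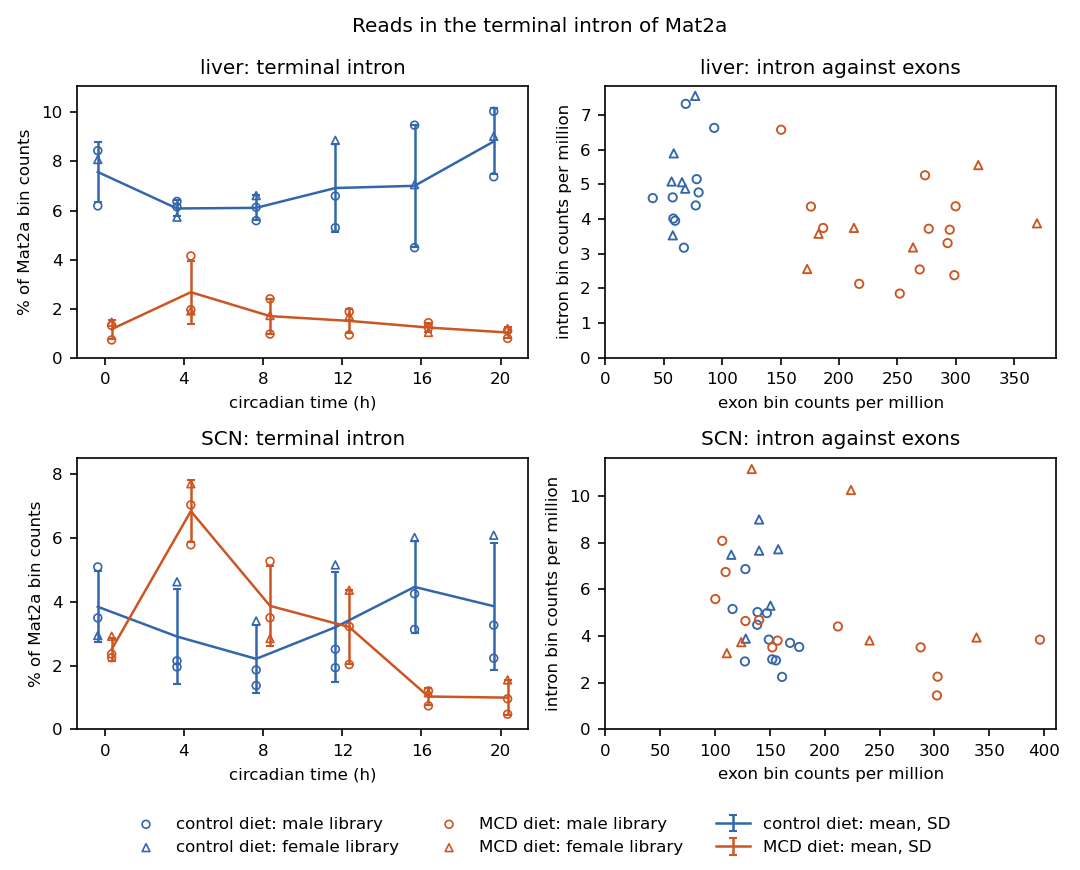
Left, share of Mat2a bin counts that lies in its last (terminal) intron (percent, y axis) against circadian time (h, x axis) in liver and SCN on both diets; right, CPM of the last intron (y axis) against CPM of the exons (x axis). Points are libraries and lines join group means with SD (n = 3); in liver the control shares (4.49% to 10.0%) lie above all MCD shares (0.727% to 4.15%), and in SCN the MCD shares cross the control shares, above them at CT4 and below them at CT16 and CT20.

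Bin usage, the count of a bin relative to all Mat2a bin counts, was tested on the 34 libraries with complete files, so control CT0 rested on 1 female library. The usage of bins 6, 7, 8 and 9 fell by 2.24, 2.34, 2.26 and 2.25 on the log2 scale in MCD livers (SE 0.13, 0.14, 0.21 and 0.18; edgeR adjusted p 4.92e-14, 5.20e-14, 4.81e-07 and 7.19e-08 over 228743 bins). In this comparison 0.970% of all bins were called, and 0.437% were called lower. The 4 pieces of the last intron thus moved by nearly the same amount, but neighbouring bins can share reads. Bin 10, of 11 bases, took a mean of 3.17% of the Mat2a counts in control livers, beside 4.19% for bin 11, of 85 bases. The 4 tests are therefore not independent. In other introns, bins 17, 19 and 23 fell by 1.05, 1.60 and 1.39 (adjusted p 0.000665, 4.43e-08 and 0.000130), and bin 22 by 0.66 without passing the test.

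Exon bins changed less. The usage of exon bins 3, 16 and 18 of Mat2a rose by 0.14, 0.19 and 0.21 (edgeR adjusted p 0.00380, 0.000357 and 0.000922), calls that diffSpliceDGE did not make (adjusted p = 1); bins 3 and 18 did not pass without replicate 2 of every group either (adjusted p 0.0694 and 0.0751). No other exon bin of Mat2a was called for diet, the lowest being bin 1 at -0.76 (adjusted p = 0.385). Under alternatives bin 13 was called higher by 0.14 with library kind in the fit (adjusted p = 0.0351) and by 0.13 without the control CT8 library labelled replicate 1 (0.0336), and bin 15 by 0.11 among bins with a mean of at least 50 counts (0.0446). Bins 23 to 29 lie opposite an annotated transcript on the other strand, Particl, and the strand setting of the counting is not given in the sources used here.

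By time, bins 6 and 7 of Mat2a passed the test at CT0, CT8, CT12, CT16 and CT20, and bins 8 and 9 at CT12, CT16 and CT20. In another intron, bin 19 also passed at CT16 and CT20. Both bin 19 calls were lost without replicate 2 of every group (falls of 2.09 and 2.10, edgeR adjusted p 0.326 and 0.525). At CT0 the test set 3 MCD livers against 1 control library, which is taken to vary like the other groups. Without replicate 2 of every group bin 8 did not pass at CT12, CT16 or CT20 (adjusted p from 0.185 to 0.457), nor bin 9 at CT12 or CT16 (0.168 and 0.0951). Without the control CT8 library labelled replicate 1, bin 6 did not pass at CT8 (0.0740) nor bin 8 at CT16 (0.0535). The share of all bins called at these times was 0.0162% at CT0, 0.0879% at CT4, 0.0118% at CT8, 0.0363% at CT12, 0.0608% at CT16 and 0.0660% at CT20. At CT4 bins 6 to 9 fell by 1.06, 1.15, 1.29 and 1.32 without passing. Without replicate 1 of every group, which includes the MCD liver of highest share (at CT4), bins 6, 7 and 8 fell by 1.42, 1.52 and 1.72 at CT4 and passed the test (adjusted p 0.0239, 0.00832 and 0.0213). The usage of bin 6 was rhythmic on MCD, with a range of 1.14 and a peak at 6.31 h (adjusted p = 0.0306, 0.699% of bins called), a call lost without replicate 2 of every group (adjusted p = 0.348). On control no bin of the last intron was called rhythmic (0.122% of bins called), nor was any called for a difference in rhythm (0.0267%).

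**Figure D3:**
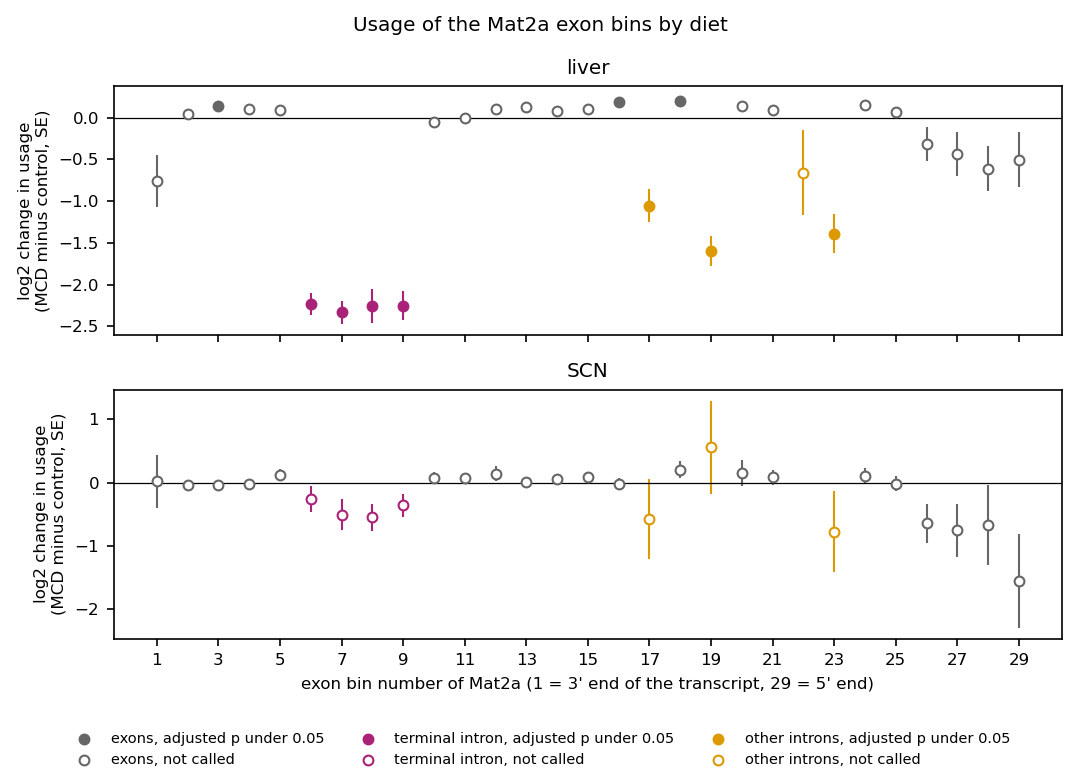
Log2 change in usage of each Mat2a exon bin on MCD against control, averaged over the day (y axis, with SE), by bin number from the 3′ end (x axis), in liver and SCN. The bins of the last intron (6 to 9) stand lowest in liver, between -2.24 and -2.34, while exon bins lie between -0.76 and 0.21; filled points passed the test, and no SCN bin did.

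The other members showed no such change. No bin of Mat1a (14 tested), Mat2b (18) or Mettl16 (16) was called for diet in liver. In Mat2b, bin 19 was rhythmic in usage on MCD (edgeR adjusted p = 0.00760).

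In the SCN, Mat2a depended on the time of day only on the MCD diet as far as the tests show, and the size of the diet difference changed over the day. Mat2a was the only gene of 15759 called at CT16 and the only gene called at CT20, where MCD levels were about 2 times the control levels. Mat2b and Mettl16 passed the test of a daily rhythm on both diets and were not called for diet.

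On control the SCN held 131, 138 and 136 CPM of Mat2a at CT0 (replicates 1, 2 and 3), 170, 166 and 157 CPM at CT4, and 150 (library a), 156 (library b) and 137 CPM at CT8. At CT12 it held 137, 142 and 133 CPM, at CT16 135, 118 and 144 CPM, and at CT20 155, 125 and 134 CPM. The control SCN thus stayed between 118 and 170 CPM throughout the day, with the group mean highest at CT4.

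On MCD the SCN held 145, 152 and 131 CPM of Mat2a at CT0, 109, 113 and 136 CPM at CT4, and 98.7, 126 and 109 CPM at CT8. At CT12 it held 199, 133 and 212 CPM, at CT16 296, 271 and 320 CPM, and at CT20 366, 287 and 234 CPM. The MCD libraries lay below all 3 control libraries of the same time at CT4 and CT8 and above them at CT16 and CT20. At CT0 and CT12 the diets overlapped. The MCD maximum at CT16 was 2.66 times the MCD minimum at CT8, whereas on control the highest group was 1.24 times the lowest.

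The log2 change of Mat2a in SCN was 0.08 ± 0.14 (SE) at CT0, -0.46 ± 0.14 at CT4, -0.41 ± 0.14 at CT8, 0.40 ± 0.14 at CT12, 1.16 ± 0.14 at CT16 and 1.10 ± 0.14 at CT20. The rises at CT16 and CT20 passed the edgeR test (adjusted p 5.05e-05 and 0.000167). Without replicate 2 of every group the rise at CT20 was 1.05 and did not pass (adjusted p = 0.0520). The lower values at CT4 and CT8 and the higher ones at CT12 did not pass (adjusted p 0.547, 1.00 and 0.999). The share of genes called in SCN was 0.00635% at CT0 (the 1 gene Fosl2), 0.0444% at CT4, 0 at CT8 (282 at an unadjusted p under 0.05) and 0 at CT12 (328), and 0.00635% at both CT16 and CT20. The 6 changes of Mat2a differed among the times (edgeR adjusted p = 8.31e-06), one of 2 genes for which they did (0.0127%), but not without replicate 1 of every group (adjusted p = 0.0600). The diet average of Mat2a, 142 ± 13.8 against 191 ± 84.8 CPM, stood at a log2 change of 0.31 ± 0.06 (adjusted p = 0.0150, 0.0635% of genes called). It was not called without replicate 1, 2 or 3 of every group (adjusted p 0.346, 0.617 and 0.126).

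The rhythm of Mat2a in SCN on MCD had a fitted range of 1.58 on the log2 scale with a peak at 17.5 h (edgeR adjusted p = 7.23e-11, 16.1% of genes called). On control the range was 0.24 and the test did not pass (adjusted p = 0.292, 15.1% of genes called). The curves differed between the diets (adjusted p = 2.55e-07), which was called for 2 genes in SCN (0.0127%). In both counts the second gene was Tsc22d3, which encodes a glucocorticoid-induced leucine zipper protein (adjusted p 0.0489 and 0.0377) and was named after its values were seen. Leaving out replicate 1, 2 or 3 of every group did not end the call of the rhythm difference of Mat2a. No single left-out library changed a call of the diet effect on Mat2a, Mat2b or Mettl16 in SCN, averaged or by time; single libraries were not left out of the rhythm tests there.

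**Figure D4:**
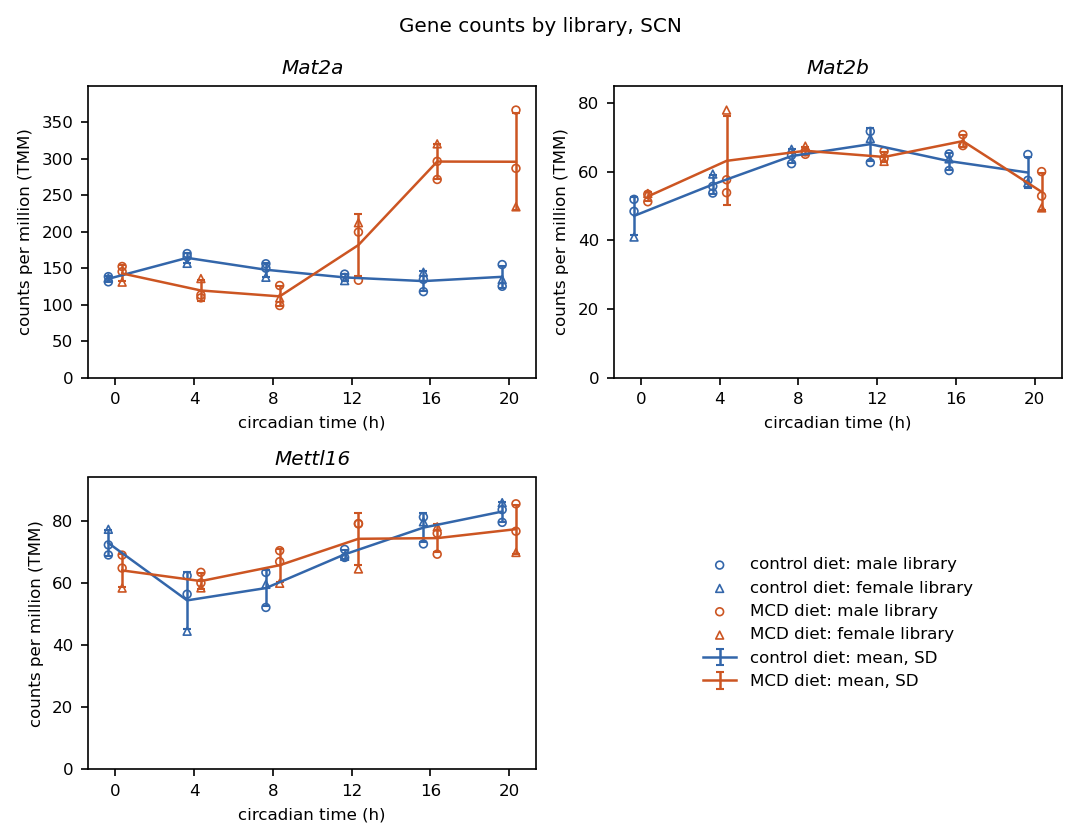
Level of Mat2a, Mat2b and Mettl16 in SCN (CPM, y axis) against circadian time (h, x axis) on both diets. Points are libraries and lines join group means with SD (n = 3); Mat2a on MCD goes from 98.7 to 136 CPM at CT4 and CT8 to 234 to 366 CPM at CT16 and CT20, while on control it stays between 118 and 170 CPM.

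Mat2b in SCN ranged from 41.0 to 71.8 CPM on control and from 49.5 to 78.0 CPM on MCD. It was rhythmic on control (range 0.45, peak 12.3 h, edgeR adjusted p = 0.00141) and on MCD (range 0.34, peak 11.0 h, adjusted p = 0.0155). Mettl16 in SCN ranged from 44.4 to 85.8 CPM on control and from 58.3 to 85.4 CPM on MCD. It was rhythmic on control (range 0.60, peak 18.3 h, adjusted p = 1.99e-05) and on MCD (range 0.35, peak 16.1 h, adjusted p = 0.0112). Neither rhythm on MCD passed without replicate 1 or without replicate 2 of every group (adjusted p 0.155 and 0.151 for Mat2b, 0.180 and 0.0876 for Mettl16). The diet average of both genes was near 0, with log2 changes of 0.04 ± 0.04 for Mat2b and 0.01 ± 0.04 for Mettl16 (SE, adjusted p = 1 for each), and their curves were not found to differ between the diets (adjusted p = 1 for each). The lowest Mettl16 group was CT4 in both diets and the highest CT20.

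Mat1a is not in the SCN gene table. Its exon bins held 0 counts in 25 of 36 SCN libraries, fewer than 10 in 33 and at most 30, against 71591 to 242455 in the liver libraries. No ratio of Mat2a to Mat1a was therefore computed in SCN.

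The share of the last intron of Mat2a in SCN was more spread over the day on MCD, from 0.478% to 7.70%, than on control, from 1.38% to 6.08%. On control it took 3.49%, 5.09% and 2.94% of the Mat2a bin counts at CT0, 1.96%, 2.15% and 4.63% at CT4, and 1.38%, 1.86% and 3.40% at CT8. At CT12 the shares were 2.51%, 1.93% and 5.15%, at CT16 3.13%, 4.25% and 6.01%, and at CT20 3.27%, 2.23% and 6.08%. At 5 of the 6 times the female library had the highest share on control. Female control libraries averaged 4.70% ± 1.31 (SD, n = 6) and male ones 2.77% ± 1.10 (n = 12), beside a share of reads in no bin of 4.95% ± 0.71 and 4.06% ± 0.33, whose part in this was not tested. On MCD the sexes were closer, with 3.42% ± 2.38 (n = 6) in female and 2.90% ± 2.13 (n = 12) in male libraries, beside shares of reads in no bin of 4.74% ± 0.54 and 4.22% ± 0.47. The female library was the highest at 4 of the 6 times on MCD and the lowest at CT8, and the sexes were not tested against each other in this share.

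On MCD the last intron of Mat2a in SCN took 2.25%, 2.36% and 2.92% at CT0, 7.03%, 5.78% and 7.70% at CT4, and 5.27%, 3.50% and 2.85% at CT8. At CT12 the shares were 2.03%, 3.23% and 4.36%, at CT16 0.741%, 1.21% and 1.15%, and at CT20 0.961%, 0.478% and 1.55%. The 3 MCD libraries lay above the control libraries of the same time at CT4 and below them at CT16 and CT20. On MCD the last intron gave 3.69 CPM of all bin counts at CT0, 8.66 at CT4, 4.50 at CT8, 6.45 at CT12, 3.24 at CT16 and 3.04 at CT20 (group means, n = 3). The share and the level of Mat2a did not move oppositely at every step, since both were lower at CT8 than at CT4 on MCD and both were higher at CT12 than at CT0, and their relation was not tested. These shares rested on 57 to 525 intron counts per MCD library.

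In the test of bin usage in SCN the last intron passed for rhythm and not for diet. On MCD the usage of bins 6, 8 and 9 was rhythmic with ranges of 2.45, 3.07 and 3.23 on the log2 scale and peaks at 5.76, 5.95 and 6.32 h (edgeR adjusted p 0.0410, 0.00450 and 0.000292), 3 of the 19 bins called among 238113 (0.00798%). On control no bin of the last intron was called rhythmic (0.00672% of bins called), with ranges of 0.75, 1.02 and 0.83 for bins 6, 8 and 9. Bin 9 of Mat2a was the only bin whose rhythm differed between the diets (range of the difference 4.06, adjusted p = 0.00262, 0.000420% of bins). Leaving out replicate 1 or replicate 2 of every group ended these calls, and leaving out replicate 3 ended that of the bin 8 rhythm (adjusted p = 0.112).

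Averaged over the day no SCN bin was called for diet (0 of 238113 by edgeR, with 9990 at an unadjusted p under 0.05 and 9 by diffSpliceDGE). At single times 0.000840% of bins were called at CT0, 0 at CT4, CT8 and CT12, and 0.000420% each at CT16 and CT20. These bins, named after their values were seen, lay in Abcf3 (bins 22 and 23, CT0), Pex14 (bin 13, CT16) and Per1 (bin 16, CT20). At CT4 the usage of bins 6 to 9 of Mat2a was 1.45, 1.03, 1.27 and 1.44 higher on MCD on the log2 scale, at CT16 it was -1.76, -1.69, -2.33 and -2.36, and at CT20 -1.01, -2.39, -2.44 and -2.26, none past the test.

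The sexes were compared because each group held 2 male libraries and 1 female. In liver the diet effect on Mat1a differed between the sexes, with opposite directions. Male livers went from 2461 ± 746 (SD, n = 12) to 3152 ± 440 CPM (n = 12) on MCD, and female livers from 3927 ± 843 (n = 6) to 2668 ± 460 CPM (n = 6). The female minus male difference of the log2 change was -0.94 ± 0.16 (SE, edgeR adjusted p = 0.00198), a test in which 1.77% of genes were called. With replicate 2 left out of every group it was -0.80 and did not pass (adjusted p = 0.213). With library kind added to the fit it was -0.94 (adjusted p = 0.00223), where 3 of 6 female control and 1 of 6 female MCD livers were of high mt-Nd6, against 7 of 12 and 4 of 12 among males.

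The sexes overlapped in their Mat1a levels on both diets. On control the 6 female livers held 2756 to 4752 CPM of Mat1a and the 12 male livers 1797 to 4369 CPM, and at each of the 6 times the female library was the highest of the 3. On MCD the female livers held 1970 to 3208 CPM and the male livers 2478 to 3763 CPM, and the female library was the lowest at 4 of the 6 times.

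Mat2a rose alike in both sexes as far as could be measured. Male livers went from 71.3 ± 15.9 to 225 ± 51.5 CPM and female livers from 70.4 ± 9.02 to 226 ± 70.8 CPM, and the difference of the log2 changes was -0.00 ± 0.15 (SE, edgeR adjusted p = 1.00). For Mettl16 the male livers went from 13.8 ± 2.09 to 16.5 ± 4.03 CPM and the female livers from 15.3 ± 1.81 to 13.5 ± 1.30 CPM, a difference of -0.40 ± 0.12 (adjusted p = 0.0890). For Mat2b it was 0.16 ± 0.09 (adjusted p = 0.511). In SCN no gene was called for this difference (0 by edgeR, 826 at an unadjusted p under 0.05).

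**Figure D5:**
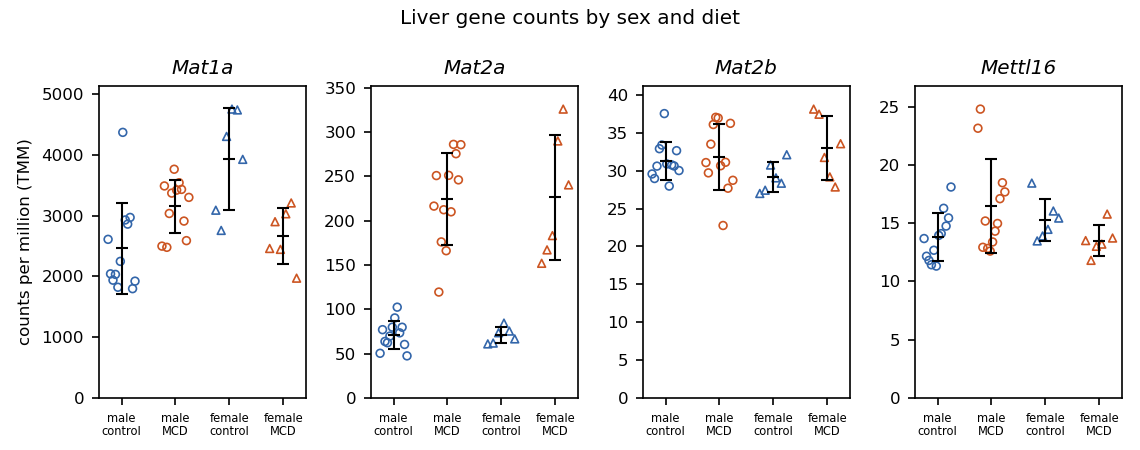
Level of the members in liver (CPM, y axis) by sex and diet (x axis); points are libraries ordered by time within a group and bars are the mean ± SD (12 male and 6 female livers per diet). Mat1a is higher in female than in male control livers (means 3927 and 2461 CPM) and the means stand the other way round on MCD (2668 and 3152 CPM).

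Liver and SCN were set side by side in 1 fit of 14491 genes. Averaged over the day, the diet effect on Mat2a was larger in liver than in SCN by 1.33 ± 0.09 on the log2 scale (SE, edgeR adjusted p = 2.22e-16), where 34.7% of genes differed. The SCN average spans changes of Mat2a from -0.46 at CT4 to 1.16 at CT16. For Mat2b and Mettl16 the difference was 0.02 ± 0.06 and 0.08 ± 0.08 (adjusted p 0.809 and 0.428). That of Mettl16 was 0.17 and passed without replicate 3 of every group (adjusted p = 0.0324), and both passed with library totals alone (0.18 and 0.24, adjusted p 0.0152 and 0.0146). On the control diet Mettl16 was lower in liver than in SCN by 1.28 ± 0.06 (adjusted p = 1.71e-27), in a comparison in which 91.6% of genes were called. The level of Mat2a and Mat2b in liver relative to SCN was -0.03 ± 0.06 and 0.02 ± 0.04 with TMM and -0.74 and -0.69 with library totals alone, so that no direction can be given for these.

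Other genes around SAM were read from lists of pathway genes. Their counts stand beside a background of 25.3% of all liver genes called higher and 21.2% called lower on MCD. Among enzymes that use SAM or recycle its product, 10 of 17 fell and 1 rose in MCD livers, with a median log2 change of -0.27 against 0.02 over all genes. Inmt (indolethylamine N-methyltransferase) fell by 1.59, from 695 to 228 CPM, and Gnmt (glycine N-methyltransferase, the main SAM-consuming enzyme of liver) fell by 1.07, from 1172 to 568 CPM. Gamt, which methylates guanidinoacetate to creatine, fell by 0.89. Mtrr, which reactivates methionine synthase, rose by 0.35 (edgeR adjusted p 3.10e-08, 4.45e-07, 5.61e-07 and 8.67e-05 for these 4).

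Among genes of SAM sensing and the amino acid response, 7 of 8 rose in MCD livers and 1 fell (median 1.21), beside 25.3% and 21.2% of all genes. The log2 changes are means of the 6 fitted changes by time, so they can differ from the ratio of the mean levels. Slc7a11, the cystine transporter, rose from a mean of 0.179 to 1.66 CPM, levels too low for a fold to be given. Trib3, a pseudokinase, rose by 2.75, with mean levels of 6.23 and 32.4 CPM, Asns, asparagine synthetase, by 2.69, with 1.81 and 8.81 CPM, and Ddit3, the transcription factor CHOP, by 1.48, with 5.07 and 14.7 CPM. Bmt2, which encodes the SAM sensor SAMTOR, fell by 0.15 (edgeR adjusted p = 0.0393), less than the shift between scalings.

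Decarboxylated SAM is the donor of polyamine synthesis, and the methionine salvage pathway returns its product. Of 12 such genes 5 rose and 4 fell in MCD livers (median 0.13), so 9 of 12 were called where 46.6% of all genes were. Amd1 and Amd2, which decarboxylate SAM, rose by 0.44 and 0.42, Srm, spermidine synthase, by 0.41 and Mtap, the first salvage enzyme, by 0.32. Got1 and Kyat1, transaminases that can close the salvage pathway, fell by 0.83 and 0.62, and Apip and Adi1, enzymes of its middle steps, fell by 0.54 and 0.21.

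Among 22 factors that act on MAT transcripts or write and read N6-methyladenosine, 9 rose and 1 fell in MCD livers (median 0.09). The 10 of 22 called were a share near that of all liver genes (46.6%). Ythdf2 and Ythdf1, cytoplasmic readers of the mark, rose by 0.35 and 0.34, Wtap, a subunit of the main writer complex, by 0.33, and Larp7 by 0.31. Nudt21, the cleavage factor subunit CFIm25, fell by 0.26. Mettl3 and Mettl14, the catalytic pair of the writer complex, changed by 0.08 each without passing the test, as did Ythdc1, the nuclear reader, by 0.00. In SCN no gene of the 4 lists was called for diet by edgeR (22, 7, 13 and 12 tested), where 0.0635% of all genes were called, or 10 of 15759 (746 at an unadjusted p under 0.05).

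Markers of other cells moved with the diet in liver, where 25.3% of all genes were called higher and 21.2% lower. Of 7 tested macrophage markers 6 rose, with a summed level of 210 to 452 CPM on control and 263 to 480 CPM on MCD. All 3 proliferation markers rose, with a summed level of 3.17 to 31.0 CPM on control and 6.40 to 33.4 CPM on MCD, and 2 of 6 tested stellate cell markers rose (258 to 582 and 298 to 742 CPM). Of the endothelial markers 2 of 5 rose (238 to 346 and 250 to 368 CPM), of the cholangiocyte markers 1 of 5, Sox9 (27.1 to 44.7 and 25.4 to 42.8 CPM), and of the lymphocyte markers 1 of 4, Ptprc (8.67 to 35.9 and 17.6 to 54.7 CPM). Of 6 hepatocyte markers 3 fell and none rose. Their part in the change of Mat2a was not tested.

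The genes whose level was most like that of Mat2a over the 36 livers were Ubap1 (Pearson r 0.95), Gm9523 (0.91), Trim8 (0.90), Acbd3 (0.90) and Mfsd5 (0.89), of 13839 genes of at least 1 CPM. These libraries share diet and time, and with the group means removed the most similar genes were Zbtb24 (0.75), Akap8 (0.71), Dnajb4 (0.69), Atg16l1 (0.68) and Zfp410 (0.68). For Mat1a the most similar livers' levels were those of Gm6939 (0.87), Bckdhb (0.86), Sult1a1 (0.83), Sult1d1 (0.80) and Txn2 (0.80), and with the group means removed those of Gm6939 (0.89), Slc6a12 (0.88), Bckdhb (0.86), Hpd (0.85) and Suox (0.84). In SCN Gm9523 (0.76), Plekha5 (0.68), AI480526 (0.63), A830082K12Rik (0.60) and Slc25a42 (0.60) were most like Mat2a in level, and with group means removed Zbtb38 (0.68), Gtpbp2 (0.65), Clk2 (0.65), Gm5869 (0.64) and Calu (0.64).

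Gm9523 stood near Mat2a in both tissues and is annotated as a processed pseudogene. Of the words of 25 bases in its transcript, 46.4% occur in Mat2a-201, so reads of the 2 may be shared. It held 1.16 ± 0.29 CPM on control and 2.74 ± 0.73 CPM on MCD in liver (SD, n = 18 each), small beside the 71.0 and 225 CPM of Mat2a.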

How the data were processed

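Stranded poly(A) libraries were read as gene counts and exon bin counts that the authors deposited. Reads were trimmed with Trimmomatic and aligned with HISAT2 to GRCm39, with StringTie and DESeq2 also named, per the submitters' processing notes; the counting tool, versions and strand setting were not given in these sources. No column of another series was present. Gene counts of each tissue were fitted in edgeR 4.0.16 (R 4.3.3; quasi-likelihood, TMM, filterByExpr with a minimum count of 10, robust) with 12 groups of diet and time plus sex, and p-values were Benjamini-Hochberg adjusted over all genes tested and called at 0.05. Rhythm was tested with cosine and sine terms of a 24 h period. Bin counts were fitted with the gene's summed bin count as an offset. The scripts were tested on simulated counts. Alternatives were library totals, no count filter, limma 3.58.1 with voom, DESeq2 1.42.0, diffSpliceDGE, the kind of library, a replicate block and leaving out replicates or single libraries. The deposited bins were matched by number to GENCODE M21, where 92.1% of genes had an equal number of bins. The named genes were the members, up to 4 called genes per list and direction with the largest change, the called Mat2a bins and the 5 genes most like Mat2a or Mat1a. A named gene of these lists is not reported here. The members and lists were chosen with earlier results of these data known. Labels do not say more of how mice were assigned, so p-values measure the spread between these libraries.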

Additional observations from a re-analysis of the deposited data

Results flagged for a closer look

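Of the results above, 5 differences between groups passed a test of the difference itself, and each is given with its values. In SCN the diet effect on Mat2a differed among the 6 times (edgeR adjusted p = 8.31e-06), from -0.46 at CT4, which did not pass, to 1.16 at CT16 on the log2 scale. Without replicate 1 of every group that difference among the times did not pass (adjusted p = 0.0600). Its rhythm in SCN differed between the diets (adjusted p = 2.55e-07). In liver the rhythm of Mat2a also differed between the diets (edgeR adjusted p = 0.0236), with fitted peaks at 11.7 h on control and 16.5 h on MCD, a call lost without replicate 1, 2 or 3 of every group (adjusted p 0.315, 0.200 and 0.0602). The diet effect on Mat1a in liver differed between the sexes by -0.943 on the log2 scale (female minus male, edgeR adjusted p = 0.00198), with 12 male and 6 female libraries per diet, and did not pass without replicate 2 of every group (adjusted p = 0.213). Averaged over the day, the diet effect on Mat2a was larger in liver than in SCN by 1.33 on the log2 scale (edgeR adjusted p = 2.22e-16).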

How the results depend on the processing

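Of 73 main results 45 kept their direction and their side of the threshold under every alternative run; sign changes of values not called in either fit are counted as the same. The rise of Mat2a in liver, overall and at each time, the fall of bins 6 to 9 by diet, and the difference in Mat2a rhythm between diets in SCN did so. With library totals alone, Mat1a, Mat2b and Mettl16 rose in liver (0.339, 0.324 and 0.354), the genes called for diet went from 5130 higher and 4296 lower to 10633 and 1540, the tissue difference in diet effect of Mat2b and Mettl16 was 0.180 and 0.242 and passed the test, and the liver level relative to SCN was -0.743 for Mat2a and -0.688 for Mat2b, the last opposite in sign to the main value. With DESeq2 the adjusted p was 0.0253 for the liver Mat2a difference between times, 0.0192 and 0.0417 for the control rhythms of Mat1a and Mettl16, and the Mettl16 sex difference of -0.393 passed. Replicate numbers did not pair the samples: deviations correlated between groups from -0.61 to 0.36 (median -0.01) in liver and from -0.12 to 0.19 (median 0.02) in SCN, with 11 of 55 pairs of groups over 0.1 in each. With the replicate block the adjusted p was 0.0346 for the Mat1a control rhythm and 0.0741 for the Mat2a rhythm difference in liver, 0.0370 for the rhythm of liver bin 7 on MCD, 0.0611 and 0.0568 for the diet effect on liver bin 8 at CT12 and CT16, and 0.0711 for the rhythm of SCN bin 6 on MCD, and the SCN diet average of Mat2a was 0.331 (adjusted p = 0.0503), while calls in all genes went from 986 to 651 for the liver rhythm difference and in SCN from 10 to 4 for diet and from 2378 to 1248 for the control rhythm. With library kind added to the fit the rhythm difference of liver bin 6 had an adjusted p of 0.0301. The causes of these changes were not tested.

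Leaving out a replicate number or a library gave ranges in liver of -0.14 to 0.38 (Mat1a) and 0.0088 to 0.219 (Mettl16) for the diet average, and of -1.11 to -0.80 for the Mat1a sex difference. Adjusted p values ranged, for control rhythms in liver, from 0.0385 to 0.453 (Mat1a), 0.0121 to 0.255 (Mat2a) and 0.00459 to 0.411 (Mettl16), for MCD rhythms from 0.0144 to 0.144 (Mat2b) and 0.000306 to 0.288 (Mettl16), and for rhythm differences from 0.0243 to 0.315 (Mat2a) and 0.0310 to 0.955 (Mettl16). For liver bin 6 they ranged from 0.0417 to 0.348 (MCD rhythm) and 0.0106 to 1 (difference). In SCN the Mat2a diet average ranged from 0.281 to 0.343 (adjusted p up to 0.617), and its difference between times from 0.00222 to 0.0600 in adjusted p. SCN rhythms on MCD ranged from 0.0186 to 0.155 (Mat2b), 0.0496 to 0.180 (Mettl16), 0.0367 to 1 (bin 6), 0.112 to 1 (bin 8) and 0.00124 to 0.469 (bin 9), and the rhythm difference of bin 9 from 0.00611 to 1. The tissue difference of Mettl16 ranged from 0.0278 to 0.174 and passed without replicate 3. At CT20 in SCN Mat2a missed the threshold without replicate 2 (1.05, adjusted p = 0.0520). Counts of calls changed as well, for reasons not tested. Without replicate 1, 2 or 3 the liver rhythm difference was called for 5, 4 and 537 genes in place of 986, and by DESeq2 for 2061. The sex difference was called for 118 and 19 genes without replicate 1 or 2 and for 737 by DESeq2, in place of 359. Bin usage in liver without replicate 3 was not run, since it leaves control CT0 with no library.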
